A study of Mus musculus with 3 samples.

Results

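Early response genes are transcribed within minutes of a stimulus, without new protein synthesis. In this study 10 of them were followed in cells sorted from mouse ankle synovium and cultured on plates of different stiffness: Egr1, Egr2, Egr3, Nr4a1, Nr4a2, Nr4a3, Ier2, Ier3, Arc and Zfp36. They were chosen by name, with earlier results of these data known, as 10 of the 56833 genes of the deposited table. All 10 had reads in every library. The cells came from Efhd1CreER; Ai9 mice, in which the Efhd1 gene drives a Cre recombinase that switches on a tdTomato reporter, and tdTomato-positive cells were sorted and are labelled telocytes, an interstitial cell type. The Cre marks only cells that expressed Efhd1 when it was active, and the labels give neither the number of mice behind a library nor their age. The 3 groups shared this genotype, tissue and sort and were kept for 24 h on collagen-coated plates with a stiffness of 0.2 kPa, called soft here, 8 kPa, called intermediate, or 64 kPa, called stiff. The question was how matrix stiffness bears on the differentiation of these cells toward fibroblasts. Each level had 1 library, so nothing below is checked against replicates, no p-value is given, and differences between cultures cannot be told apart from differences between stiffness levels.

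Egr1, Egr2 and Egr3 are zinc-finger transcription factors that bind the same GC-rich site. Nr4a1, Nr4a2 and Nr4a3 are orphan nuclear receptors whose activity is set mainly by how much of them is made. The classic routes that switch on such genes are kinase signalling through SRF, which binds the CArG box together with Elk or MRTF cofactors, and cAMP or calcium signalling through CREB, which binds the cAMP response element (CRE). Egr1 in particular is known as a gene that responds to growth factors and mechanical stretch in fibroblasts. Zfp36 encodes tristetraprolin, which binds AU-rich elements and speeds the decay of cytokine mRNAs.

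The set of RefSeq promoter sequences (GRCm38.p6) used here held 6 of the 10 genes: Egr2, Nr4a1, Nr4a2, Nr4a3, Ier3 and Zfp36. Promoters of Egr1, Egr3, Ier2 and Arc were not in that set and are not shown. The 250 bases before the start are printed 5′ to 3′ on the gene's strand for the 5 genes in which a searched motif was found, Egr2 by 1 of its start sites. Capitals mark CArG boxes, the CRE core TGACG and the Egr site GCGGGGGCG, each searched on both strands together with the full CRE TGACGTCA and the second Egr site GCGTGGGCG. The full CRE contains the core on each strand, and such cores are included in the shares of all windows. The windows are chr10:67537620-67537869 on the plus strand for Egr2, chr7:28379229-28379478 on the minus strand for Zfp36, chr15:101266596-101266845 on the plus strand for Nr4a1, chr2:57124004-57124253 on the minus strand for Nr4a2 and chr4:48045055-48045304 on the plus strand for Nr4a3.
Egr2: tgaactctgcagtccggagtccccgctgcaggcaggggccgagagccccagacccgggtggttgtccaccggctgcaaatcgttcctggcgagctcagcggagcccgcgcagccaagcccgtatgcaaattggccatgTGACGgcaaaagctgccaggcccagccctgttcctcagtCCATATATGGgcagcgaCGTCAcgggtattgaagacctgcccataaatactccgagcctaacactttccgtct
Zfp36: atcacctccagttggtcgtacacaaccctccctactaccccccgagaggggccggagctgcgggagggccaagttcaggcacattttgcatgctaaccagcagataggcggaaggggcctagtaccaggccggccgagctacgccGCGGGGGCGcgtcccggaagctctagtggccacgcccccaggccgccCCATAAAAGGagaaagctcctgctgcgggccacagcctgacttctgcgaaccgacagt
Nr4a1: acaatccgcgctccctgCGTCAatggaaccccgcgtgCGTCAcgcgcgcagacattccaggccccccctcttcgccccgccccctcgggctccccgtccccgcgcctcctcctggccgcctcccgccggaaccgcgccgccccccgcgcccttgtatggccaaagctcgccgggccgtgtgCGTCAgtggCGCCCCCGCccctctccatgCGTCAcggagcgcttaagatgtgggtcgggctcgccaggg
Nr4a2: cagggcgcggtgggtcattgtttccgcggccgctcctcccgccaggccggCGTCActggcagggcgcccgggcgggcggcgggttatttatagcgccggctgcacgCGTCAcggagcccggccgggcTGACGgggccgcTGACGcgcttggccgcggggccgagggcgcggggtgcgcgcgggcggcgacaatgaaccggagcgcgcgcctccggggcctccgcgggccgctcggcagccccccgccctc
Nr4a3: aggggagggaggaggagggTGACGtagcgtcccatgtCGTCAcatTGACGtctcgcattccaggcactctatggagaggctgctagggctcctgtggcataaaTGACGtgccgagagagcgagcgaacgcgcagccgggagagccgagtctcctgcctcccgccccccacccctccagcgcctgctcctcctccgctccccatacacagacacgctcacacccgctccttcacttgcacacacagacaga

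Each of the 3 Nr4a windows held 4 CRE cores, whereas 0.137% of all 32851 RefSeq windows of this length held 4 or more and 17.8% held any. No full CRE was found in the windows of the 6 genes, against 1.55% of all windows. A CArG box lay 73 to 64 bases before the start of Egr2, with a CRE core on either side of it, and 58 to 49 bases before the start of Zfp36. A CArG box occurred in 1.47% of all windows. RefSeq gives Egr2 5 start sites, of which the 3 overlapping windows hold the same CArG box and the window of another start holds a different one. The site GCGGGGGCG was found once in Zfp36 and, on the opposite strand, once in Nr4a1, against 2.57% of all windows, while GCGTGGGCG, in 0.536% of all windows, was found in none of the 6. The Ier3 window held none of these motifs. A match of letters describes the sequence and does not show that a factor binds there.

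**Figure D1:**
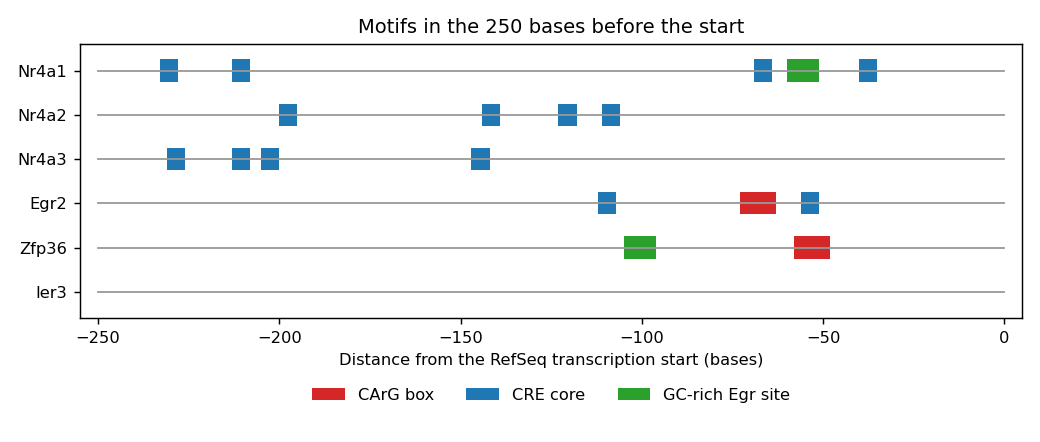
Positions of motifs in the 250 bases before the RefSeq start of 6 early genes, with the distance from the start in bases on the x axis and 1 gene per line. Red bars are CArG boxes, blue bars CRE cores and green bars the site GCGGGGGCG. The 3 Nr4a genes carry 4 CRE cores each, Egr2 and Zfp36 carry a CArG box, and Ier3 carries none of these.

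The values are normalized counts, the reads of a gene over its library's size factor, and 1 read was worth 1.03 of them on the soft, 0.943 on the intermediate and 1.03 on the stiff plate. The libraries held 25487064, 28081600 and 26474862 reads in that order. A log2 ratio compares 2 libraries after adding 1 to each value. The 95% interval beside it is an exact Clopper-Pearson interval of the reads without that addition, and it covers counting error only. A gene is called past the fold when its log2 ratio is at least 1 in size and its mean at least 50 normalized counts, which 11873 genes reached, all 10 early genes among them. A smaller step of 0.5 is used beside it.

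The values of the 10 genes took 3 shapes. Egr2, Egr3, Nr4a3 and Arc stood highest in the intermediate library by a step of at least 0.5 on both sides. Egr1, Ier3 and Zfp36 were highest in the stiff library. Nr4a1, Nr4a2 and Ier2 had smaller differences with their highest value in the intermediate library. In all, 7 of the 10 were highest in the intermediate library, where 23.2% of all genes were highest, and 3 in the stiff library, where 42.2% were. None was highest in the soft library, where 34.6% of all genes were. The first shape was found after the values had been seen. It was met by 4 of the 10 genes and by 42 of all 11873 genes (0.354%). Both steps of it contain the intermediate library, so a high value there enters both.

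**Figure D2:**
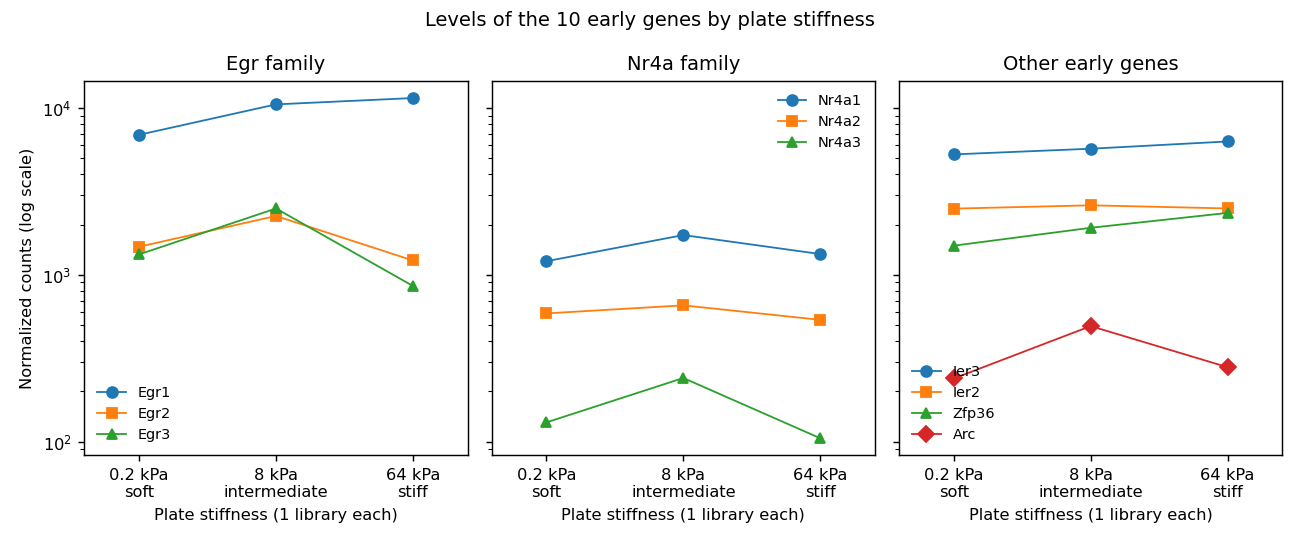
Normalized counts on a log scale of the 10 early genes on the 3 plates, with 1 point per library and lines joining the libraries of a gene. Egr2, Egr3, Nr4a3 and Arc stand out at 8 kPa, while Egr1, Ier3 and Zfp36 are highest at 64 kPa and Ier2 is nearly level.

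Among the Egr genes the members parted on the stiff plate. Egr1, on chromosome 18 and the gene with the most reads of the 10, had 6895 normalized counts on the soft, 10499.8 on the intermediate and 11459 on the stiff plate. The stiff and intermediate libraries both lay above the soft one and close to each other. Its log2 ratio was 0.61 for intermediate to soft (interval 0.56 to 0.65), 0.73 for stiff to soft (0.69 to 0.78) and 0.13 for stiff to intermediate (0.09 to 0.16). With the length and GC correction described below these were 0.49, 0.46 and 0.002, each outside its counting interval.

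Egr2, a regulator of myelination and of T cell tolerance, lies at chr10:67373692-67378018 on the plus strand of GRCm39, with 2 exons in its canonical transcript. It had 1471 normalized counts on the soft, 2250.2 on the intermediate and 1217 on the stiff plate. The intermediate plate stood above both others, with a log2 ratio of 0.61 to soft (0.52 to 0.71), and the stiff library was 0.89 below the intermediate one (log2 ratio -0.89, interval -0.99 to -0.79). Stiff lay below soft as well, at -0.27 (-0.39 to -0.16).

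Egr3, which is induced by antigen receptor and neuronal activity, had 1324 normalized counts on the soft, 2495 on the intermediate and 856 on the stiff plate. It had the largest range of the 10 genes, 2.91-fold between its highest and its lowest library. The log2 ratio was 0.91 for intermediate to soft (0.82 to 1.01), -1.54 for stiff to intermediate (-1.66 to -1.43) and -0.63 for stiff to soft (-0.76 to -0.50). On the stiff plate Egr3 was thus lower than on the soft plate while Egr1 was higher.

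Ratios of reads within a library show the same divergence without any scaling between libraries. For every 100 reads of Egr1 there were 19.2 reads of Egr3 on the soft, 23.8 on the intermediate and 7.47 on the stiff plate. The same figure for Egr2 was 21.3, 21.4 and 10.6. The ratio of Egr2 to Egr1 was nearly equal on the soft and intermediate plates and lower on the stiff one. Egr4, the remaining gene of the family, was barely covered, with 2, 14 and 10 reads in the soft, intermediate and stiff libraries.

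The Nr4a genes all had their highest value in the intermediate library, to different degrees. Nr4a1, also called Nur77, lies at chr15:101164660-101172680 on the plus strand of GRCm39 and has 7 exons in its canonical transcript. It had 1205 normalized counts on the soft, 1729 on the intermediate and 1330.1 on the stiff plate. The log2 ratio was 0.52 for intermediate to soft (0.41 to 0.63) and -0.38 for stiff to intermediate (-0.48 to -0.27). Stiff against soft stood at 0.14 (0.03 to 0.26), but at 0.09 when scaled by total reads or by the upper quartile, and 0.05 after the length and GC correction described below.

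Nr4a2, also called Nurr1 and needed by dopamine neurons, had 586 normalized counts on the soft, 655 on the intermediate and 536 on the stiff plate. Its neighbours in this order, soft and intermediate, had a log2 ratio of 0.16 with an interval from -0.002 to 0.32, and stiff and soft a ratio of -0.13 with an interval from -0.30 to 0.04, so neither pair differed beyond counting error. Stiff against intermediate, at -0.29 (-0.46 to -0.12), did.

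Nr4a3, also called Nor1, lies at chr4:48045153-48086447 on the plus strand of GRCm39 with 8 exons. It was the least abundant of the 10, at 130.2 normalized counts on the soft, 240.4 on the intermediate and 104.6 on the stiff plate. The intermediate value was well above both others, with a log2 ratio of 0.88 to soft (0.57 to 1.20), and stiff was -1.19 from intermediate (-1.55 to -0.86). Stiff and soft, at -0.31, did not differ beyond counting error (-0.71 to 0.07). For every 100 reads of Nr4a1 there were 10.8 reads of Nr4a3 on the soft, 13.9 on the intermediate and 7.86 on the stiff plate. The same figure for Nr4a2 was 48.7, 37.9 and 40.3, lowest on the intermediate plate. The range between highest and lowest library was 1.44-fold for Nr4a1, 1.22-fold for Nr4a2 and 2.30-fold for Nr4a3. All 3 promoters hold 4 CRE cores, and a link between the cores and these values was not tested.

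**Figure D3:**
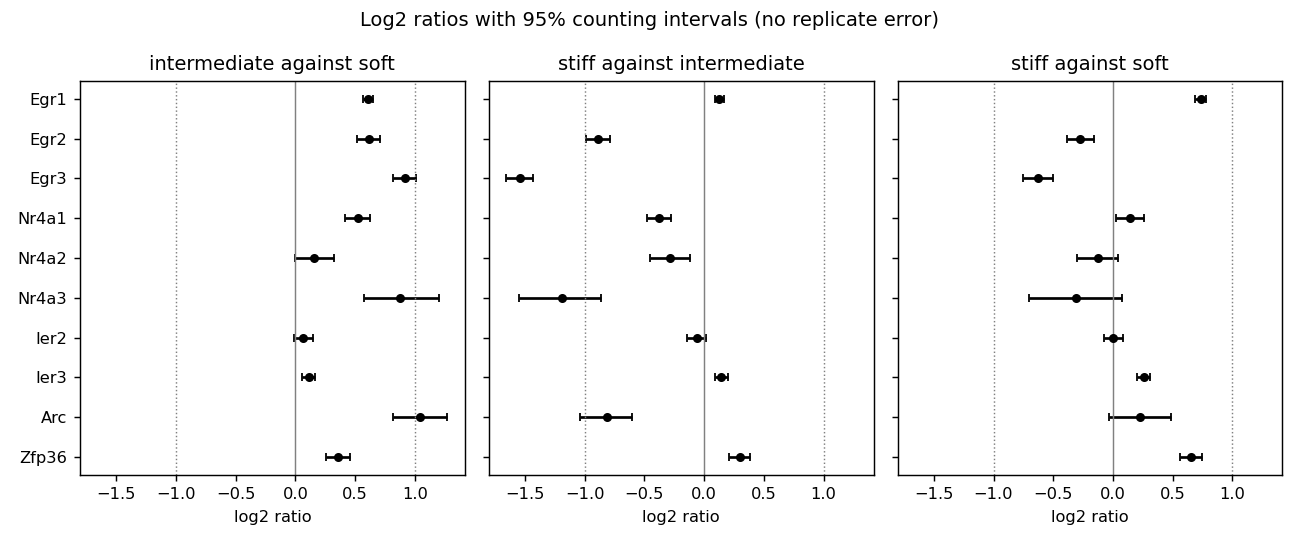
Log2 ratios of the 10 early genes in the 3 comparisons, with points for the ratio, bars for the 95% counting interval and dotted lines at a log2 ratio of 1 in either direction. Every ratio of intermediate to soft lies above 0, and Arc passes 1 there. For stiff to intermediate Egr3 and Nr4a3 lie below -1.

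Arc, a neuronal gene of synaptic plasticity whose protein assembles into capsids, had 239 normalized counts on the soft, 492 on the intermediate and 279 on the stiff plate. The intermediate library stood above the other two. Its log2 ratio of 1.04 for intermediate to soft (0.82 to 1.27) was the only one of the 10 past the fold in that comparison, and it was 0.98, below the fold, once the trend of ratios with transcript length and GC content was subtracted. Stiff against intermediate was -0.82 (-1.04 to -0.60), and stiff against soft, at 0.22, did not differ beyond counting error (-0.03 to 0.48).

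Zfp36 lies at chr7:28076209-28079710 on the minus strand of GRCm39, with 2 exons in its canonical transcript. It had 1493 normalized counts on the soft, 1912 on the intermediate and 2347 on the stiff plate. The 3 values were in the order of stiffness, with log2 ratios of 0.36 for intermediate to soft (0.26 to 0.46), 0.30 for stiff to intermediate (0.21 to 0.38) and 0.65 for stiff to soft (0.56 to 0.75). Of the 10 genes, 3 had both steps upward beyond counting error, namely Egr1, Ier3 and Zfp36, a rise that 10.6% of all genes also had. After the length and GC correction described below the second step of Egr1 was near 0.

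Ier3, a gene that limits cell death and NF-kappaB signalling, had 5264 normalized counts on the soft, 5693 on the intermediate and 6293.5 on the stiff plate. These were also in the order of stiffness, but the differences were small, with log2 ratios of 0.11 for intermediate to soft (0.06 to 0.17) and 0.26 for stiff to soft (0.20 to 0.31). Ier2 had 2490.2, 2607 and 2496 normalized counts at 0.2, 8 and 64 kPa. Its log2 ratio of stiff to soft was 0.003 (-0.08 to 0.09), its sign was negative under all 3 other scalings tried, and none of its 3 ratios differed from 0 beyond counting error. Relative to the reads of Ier2 in the same library, Zfp36 had 59.9% on the soft, 73.3% on the intermediate and 94.0% on the stiff plate, and Ier3 had 211%, 218% and 252%.

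Per kilobase of canonical transcript (GENCODE vM39) the 10 genes spanned a wide range. In the soft library Ier3 stood highest at 4622 normalized counts per kilobase, followed by Ier2 at 1634 and Egr1 at 1534. Zfp36 was at 529, Egr2 at 495, Nr4a1 at 473 and Egr3 at 304. Nr4a2, Arc and Nr4a3 were lowest at 123, 78.1 and 22.8. Egr1 stood above Ier2 in the intermediate library, at 2335 against 1710, and in the stiff library, at 2549 against 1638.

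Counted over the group, 1 of the 10 genes was past the fold in the intermediate library against soft, with 0.16% of all genes past it in that direction, and 0 were lower, with 0.00842% of all genes. At a log2 ratio of 0.5 the count was 6 higher (Egr1, Egr2, Egr3, Nr4a1, Nr4a3 and Arc), against 3.94% of all genes, and 0 lower, against 0.657%. Of the 6, Egr1 was at 0.49 with the length and GC correction and Nr4a1 at 0.49 when scaled by the upper quartile, each then below the step. All 10 ratios were above 0, against 53.5% of all genes, and 8 of the intervals lay above 0, against 21.8% of all genes, and 0 below, against 13.5%. The median log2 ratio was 0.56 over the 10 genes and 0.01 over all 11873.

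Between stiff and intermediate 2 of the 10, Egr3 and Nr4a3, were past the fold downward, against 0.421% of all genes, and 0 upward, against 0.825%. At 0.5 the counts were 4 lower, against 3.42% of all genes, and 0 higher, against 5.42%. The counting interval lay below 0 for 6 of the 10, against 22% of all genes, and above 0 for 3, against 26.3%. The median was -0.33 over the 10 and 0.01 over all genes.

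Over the full range, stiff against soft, 0 of the 10 were past the fold in either direction, where 3.22% of all genes were higher and 0.387% lower. At 0.5 Egr1 and Zfp36 were higher, against 11.8% of all genes, and Egr3 was lower, against 3.77%. With the length and GC correction Egr1 was at 0.46, below that step. The counting interval lay above 0 for 4 of the 10, against 31.3% of all genes, and below 0 for 2, against 25.9%, shares near those of all genes. The median was 0.07 over the 10, whose ratios went both ways, and 0.005 over all genes. The comparisons share libraries and are not independent of each other.

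**Figure D4:**
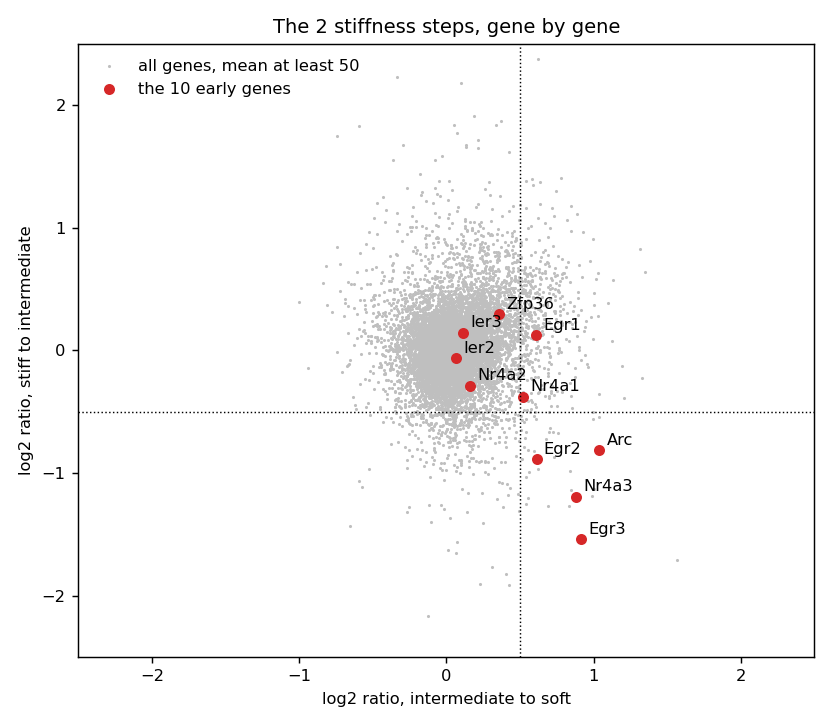
Log2 ratio of intermediate to soft (x axis) against log2 ratio of stiff to intermediate (y axis) for all genes whose mean reached 50 normalized counts (grey) and the 10 early genes (red), with dotted lines at the steps of 0.5 and -0.5. Egr2, Egr3, Nr4a3 and Arc lie in the lower right corner. The axes share the intermediate library, and 4 genes lie outside the limits of 2.5.

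The stiff to soft ratio of Egr1 moved most with the correction for transcript length and GC content. Genes of similar length and GC content had a median ratio of 0.27 there, and Egr1 was 0.46 above them in place of 0.73. The part of this trend in the result was not tested. For Egr3 the correction gave -0.76 in place of -0.63 for stiff to soft. In the same comparison Arc was at 0.10 in place of 0.22 and Nr4a2 at -0.20 in place of -0.13. For intermediate to soft Ier3 was at 0.17 in place of 0.11.

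Genes upstream of the 10 were given by a list of 16 transcription factors and kinases. For stiff to soft 4 of the 16 were at least 0.5 higher, against 11.8% of all genes, and 0 lower, against 3.77%. These were Mrtfa at 0.88, Mrtfb at 0.81, and Srf and Crtc3 at 0.62 each, of which Mrtfa, Mrtfb and Srf act at the CArG box and Crtc3 is a CREB coactivator. Srf had 1417 normalized counts on the soft, 1425 on the intermediate and 2172 on the stiff plate. For intermediate to soft 1 of the 16, Mrtfb at 0.65, was at least 0.5 higher, against 3.94% of all genes. In that comparison 0 were as much lower, against 0.657%. Creb1, with log2 ratios of -0.02 for intermediate to soft and 0.05 for stiff to soft, and the kinase Mapk3, at 0.04 and -0.03, were close to level. Elk1, at -0.18 for stiff to soft, had the lowest ratio of the list. The list median was 0.14 for stiff to soft, 0.05 for intermediate to soft and 0.06 for stiff to intermediate. Transcript levels do not report the phosphorylation through which most of these factors act.

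A further 30 early genes were set beside the 10. Of these 22 were highest in the stiff library, where 42.2% of all genes were, and 8 in the intermediate library, a share near the 23.2% of all genes. For stiff to soft 14 were at least 0.5 higher, against 11.8% of all genes, and 0 lower, against 3.77%. Past the fold upward were 2, against 3.22% of all genes: Ccn2, a matricellular growth factor, at 1.21 and Sik1, a kinase that restrains CREB coactivators, at 1.15. For intermediate to soft 4 were at least 0.5 higher, against 3.94% of all genes, with Fosb at 1.57, Per1 at 0.65, Sik1 at 0.55 and Trib1 at 0.51. Their medians were 0.45 for stiff to soft, 0.21 for intermediate to soft and 0.22 for stiff to intermediate, beside 0.07, 0.56 and -0.33 for the 10, and the difference between the lists was not tested. Of the 30, only Fosb had the shape of Egr2, Egr3, Nr4a3 and Arc, at 154.8 normalized counts on the soft, 461 on the intermediate and 140.5 on the stiff plate. Fos, its relative in the AP-1 family, was in the order of stiffness, at 660.2, 910 and 1153.

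**Figure D5:**
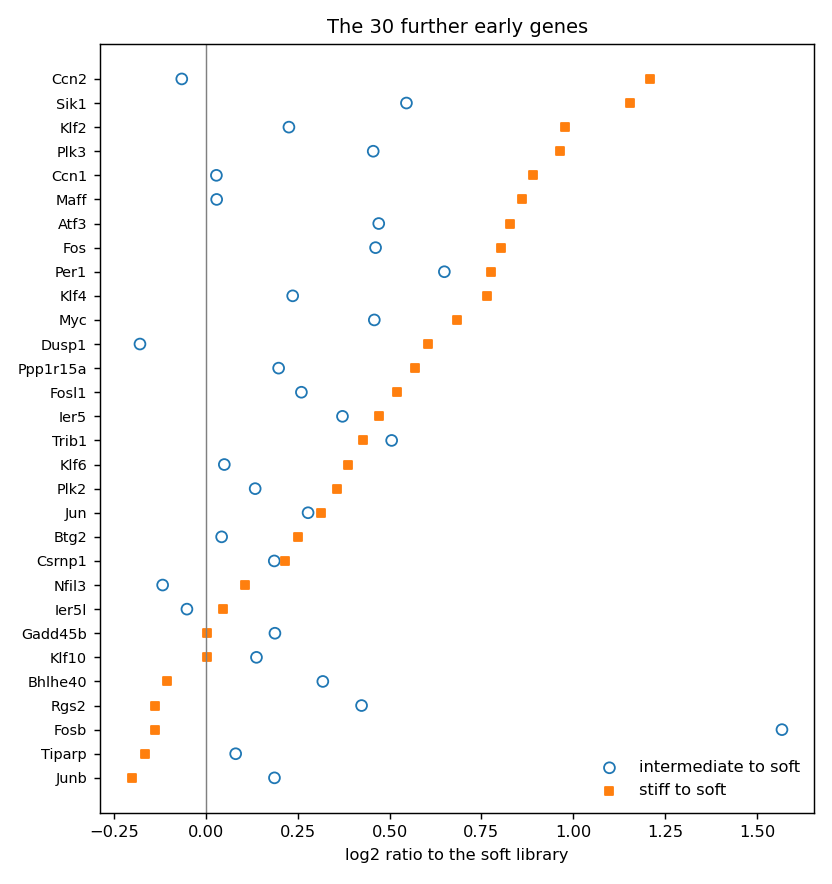
Log2 ratios to the soft library of 30 further early genes, ordered by the stiff to soft ratio, with open circles for the intermediate and squares for the stiff library. Most squares lie to the right of the circles of the same gene, and Fosb is far to the right for the intermediate library only.

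Downstream of the Egr factors, 7 of the 8 listed corepressors, targets and relatives reached a mean of 50. For stiff to soft 1 of the 7 was past the fold, against 3.22% of all genes, namely F3, the coagulation initiator tissue factor, at 1.13. At 0.5 the count was 2, against 11.8%, with Icam1, an adhesion molecule, at 0.58 beside it. Nab2, the corepressor that Egr factors induce and that restrains them, had the lowest ratio at -0.21. At 2931, 2876 and 2537 normalized counts at 0.2, 8 and 64 kPa, it did not share the high intermediate value of Egr2 and Egr3. Of the 7 only Tgfb1 was highest in the intermediate library, where 23.2% of all genes were. It had 5980, 7227 and 6097 normalized counts in the same order. Its log2 ratio was 0.27 for intermediate to soft and -0.25 for stiff to intermediate. For intermediate to soft 0 of the 7 were at least 0.5 higher, against 3.94% of all genes, or lower, against 0.657%, and a count of 0 among 7 genes is near these shares. Of the retinoid receptors that pair with Nr4a1 and Nr4a2, Rxra had a stiff to soft ratio of 0.27 and Rxrb of -0.24, and Rxrg had 7, 3 and 1 reads in the soft, intermediate and stiff libraries.

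Zfp36 and its 2 detected relatives were all highest in the stiff library, as were 42.2% of all genes. Zfp36l1 had 1949, 2451 and 2642 normalized counts at 0.2, 8 and 64 kPa and Zfp36l2 had 6123, 7144 and 8016, with stiff to soft log2 ratios of 0.44 and 0.39. Zfp36l3 had 0 reads in every library, which allows up to 3 reads in each. Of 10 transcripts reported to be bound by tristetraprolin, Ier3 among them, 9 reached a mean of 50. For intermediate to soft all 9 were above 0, against 53.5% of all genes, with a median of 0.30. At least 0.5 higher were 2 of the 9, against 3.94%, namely Ccl3 at 1.21 and Lif at 0.60, of which Ccl3 was past the fold, as 0.16% of all genes were. For stiff to soft 6 of the 9 were above 0, against 51.1% of all genes, and 3 below, from Tnf at 1.03 to Il6 at -0.32. At least 0.5 higher were 4 of the 9, against 11.8% of all genes, and 0 were as much lower, against 3.77%. These 4 were Tnf, past the fold as 3.22% of all genes were, Ccl3 at 0.81, Cxcl2 at 0.66 and Ptgs2 at 0.52. For stiff to intermediate 3 of the 9 were at least 0.5 lower, against 3.42% of all genes, namely Il1b, Il6 and Lif at -0.67, -0.55 and -0.50. In that comparison 2 of the 9 were higher, against 5.42%, namely Tnf and Cxcl2 at 0.73 and 0.52.

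AU-rich elements were searched in the 3′ UTRs of the canonical transcripts of the 10 genes, since these mRNAs are known to decay fast. The pentamer ATTTA was present in 8 of the 10, all but Ier2 and Arc, against 67.4% of protein-coding transcripts. The nonamer TTATTTATT that tristetraprolin prefers was present in 1 of the 10, against 8.34%, so neither share stood far from the background. That 1 was Zfp36 itself, whose site begins at base 589 of its 774-base 3′ UTR and is shown with its flanks, the nonamer in capitals.
Zfp36: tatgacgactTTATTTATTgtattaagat

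By likeness of the 2 log2 ratios to the soft library over the 3 libraries, among 10645 named genes with a mean of at least 100, the genes closest to Egr1 were Tmem131l, Hdac4 and Fat4, at Euclidean distances of 0.020, 0.022 and 0.023. Those closest to Nr4a1 were Zfp72, H2-T23 and Rad54l2, at 0.019, 0.032 and 0.038. Those closest to Zfp36 were Adgrl2, Cabin1 and Ccnk, at 0.003, 0.008 and 0.011. The likeness rests on 2 ratios per gene, and none of these genes is another early gene of the lists.

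The labelled cell type was checked by its markers. Fibroblast genes were abundant, with Col1a1 at 78648 normalized counts and Pdgfra at 5884 in the soft library, and Cd34, a marker of telocytes, stood at 235, while Efhd1 itself had 10, 5 and 3 reads in the soft, intermediate and stiff libraries. Macrophage genes were present, and 11 of 12 reached a mean of 50. For stiff to soft all 11 had a ratio above 0, against 51.1% of all genes, and 9 were past the fold upward, against 3.22%. Fcgr1 had its highest value in the intermediate library and the other 10 in the stiff library, where 42.2% of all genes were highest. Their summed level was 27774, 34499 and 61402 in the soft, intermediate and stiff libraries. Cx3cr1 had 0 reads in each. Macrophages also transcribe Egr, Nr4a and Zfp36 genes, and in bulk RNA a higher share of such cells and more RNA per cell cannot be told apart. The order of that sum is the order of Egr1, Ier3 and Zfp36, and its part in their values was not tested. The median macrophage gene had a log2 ratio of 0.44 for intermediate to soft and 0.82 for stiff to intermediate. Egr2, Egr3, Nr4a3 and Arc were highest in the intermediate library, and the part of macrophages in their values was not tested either. Endothelial, skeletal muscle and erythroid markers summed to 86.1, 15.4 and 0 in the stiff library, and the list for basophils, mast cells and T cells to 1134, 760 and 743 on the soft, intermediate and stiff plates. Nearly all of that last sum was Mcpt8, a basophil protease, with 1106, 806 and 724 reads and a stiff to soft log2 ratio of -0.61, while Cpa3, Cd3e and Cd3g had 0 reads in every library and Nkg7 had 1 read, in the stiff one. In the same order of plates the markers of synovial lining summed to 5300.2, 6291 and 8335, of mural cells to 636, 666 and 599, and of Schwann cells to 191, 175 and 127. The part of these cells in the values of the early genes was not tested.

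GENCODE places long noncoding gene models on the opposite strand across parts of Egr2, Nr4a1, Nr4a3, Ier3 and Zfp36. Another model, Gm56721, lies on the same strand as Nr4a1 and overlaps it by 2740 bases, so its reads could not be kept apart by strand. Of all these models only Gm44710, opposite Zfp36, is in the deposited table. The kit is stranded, but whether the counting used strand is not given in the sources used here, so reads of such models and of these genes may not be separate.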

How the data were processed

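Stranded mRNA libraries of the 3 cultures were sequenced, per the labels' protocols. The submitters' processing notes list bcl2fastq 2.20.0, STAR 2.7.9a, featureCounts, Subread 2.0.1, DESeq2 1.34.0 and the build GRCm39, with no role or order, and the annotation is not given in the sources used here. The deposited signal is DESeq2-normalized, per the name the authors gave the files, that is the reads of a gene over its library's size factor. The 3 files held the same table, and each column was assigned to the sample whose title it carries. Dividing a column by its smallest positive value gave whole numbers, within 1e-06, for 100% of its values, and these were taken as reads. A count test on them needs replicates and was not run.

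Log2 ratios used a pseudocount of 1, which understates differences of low genes. Intervals are exact 95% Clopper-Pearson intervals of reads, and reads without molecular identifiers are not independent molecules. A count of 0 allows 3 reads. The 10 genes and all lists were chosen with earlier results of these data known. The rule named all 10 genes, the highest and lowest stiff to soft ratio of each list, and the 3 genes most like Egr1, Nr4a1 and Zfp36. Other genes named from the lists were chosen after their values were seen. Lengths, GC content and gene positions are from GENCODE vM39 (GRCm39), and promoters from RefSeq (GRCm38.p6). The length and GC trend is the median ratio of the 300 nearest genes in ranks of both. Other pseudocounts, scalings, minimum means and folds were tried. The functions were tested on simulated data. The scripts used scipy 1.17.1, matplotlib 3.10.9, pandas 2.3.3 and numpy 2.4.6 under Python 3.11.15.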

Additional observations from a re-analysis of the deposited data

How the results depend on the processing

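With 1 library per level no replicate could be left out. No paired analysis was possible because each stiffness level has 1 library. Of 180 values of the 30 log2 ratios of the 10 genes under 6 alternatives each (pseudocounts of 0.1 and 10, 3 scalings, and the length and GC trend), 170 stayed inside the counting interval. The sign differed only for Ier2, stiff to soft, under the 3 scalings. The medians over the 10 genes stayed inside their counting range under those alternatives and with a minimum mean of 10. The count of 4 genes highest in the intermediate library, a result added after seeing the data, was 4 under the same 6 alternatives, 5 at a step of 0.25 and 3 at 0.75.

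At a log2 ratio of 0.5 the genes of the 10 past it numbered 3 for stiff to soft, 6 for intermediate to soft and 4 for stiff to intermediate, and at 1.5 they numbered 0 for intermediate to soft and 1 for stiff to intermediate. With the length and GC trend subtracted 0 were past the fold for intermediate to soft, since Arc was then at 0.98. Over all genes the counts for stiff to soft, intermediate to soft and stiff to intermediate were 428, 20 and 148. They were 1850, 546 and 1050 at 0.5, 71, 2 and 33 at 1.5, 822, 215 and 451 when the minimum mean was 10, and 5827, 3646 and 3904 with no minimum. With a pseudocount of 10 the count for intermediate to soft was 10. Thresholds and minimum means change these counts by construction. Nr4a3, with 102 to 255 reads, is where depth limits the values most.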

Other observations

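The 42 genes that stood at least 0.5 higher in the intermediate than in both other libraries included Egr2, Egr3, Nr4a3, Arc and Fosb. Of the others, the 5 with the most normalized counts in the intermediate library are named here, a choice made after the values were seen, with no test of what they share. Ereg, a ligand of the EGF receptor, had 5424 normalized counts on the soft, 8041 on the intermediate and 5662 on the stiff plate. Lif, a cytokine, had 1714, 2597 and 1831. Sema7a, a membrane-anchored semaphorin, had 1648.5, 2371 and 1375. Nfatc1, a transcription factor activated through calcium and calcineurin, had 1388, 1985 and 1335. Irf7, a transcription factor of the interferon response, had 1099, 1779.8 and 1124. The mitochondrial gene mt-Atp6 had the largest log2 ratios of the 42, at 61.5, 759 and 32.8 normalized counts. With 1 library per level, whether these genes share anything with the early genes beyond that library was not tested.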
